A study of Mus musculus with 4 samples.

Results

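Long single-exon peaks are stretches of 600 nt or more within 1 exon where RNA carrying N6-methyladenosine (m6A) was enriched by antibody without a break. They were chosen by the measured exon number and length in the 2 deposited peak lists of mouse pancreatic islets, as rows with 1 exon block and a block size of 600 nt or more. The Wtap-βKO list held 437 of them among 9411 peaks, and the Wtap flox/flox list held 757 among 10964 peaks. Each was then compared with the same place on the same strand in the other list, to see whether the domain was also long there, shorter, divided into pieces or not called.

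m6A is the most common internal mark of mRNA and is laid down by a nuclear writer complex whose catalytic core is METTL3 with METTL14. WTAP is the adaptor that holds this core in nuclear speckles, and RBM15 is an RNA-binding subunit of the same complex. The mark is known to be dense in long internal exons and around stop codons, where many marked adenosines can lie close together, and it is known for speeding the decay of the transcripts that carry it.

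The knockout pool was RNA from islets of 19 Wtap-βKO mice, in which Wtap was deleted in beta cells, and the control pool was RNA from islets of 10 Wtap flox/flox mice, which carry the floxed alleles. All mice were 7 weeks old and ate normal chow. From each pool of 2 µg, RNA cut to about 100 nt was either immunoprecipitated with an m6A antibody or sequenced as input. Each genotype therefore had 1 immunoprecipitated library and 1 input library. No test between genotypes was possible. Intervals below are exact Clopper-Pearson 95% intervals over peaks or loci, and they cover counting error only. The driver of the beta cell deletion is not given in the sources used here, and whole islets also hold alpha, delta, endothelial and other cells with an intact Wtap gene. In such bulk RNA, fewer cells of a type and less RNA per cell cannot be told apart. The lists hold peaks and no RNA levels, and the sequencing depth of the libraries is unknown, so the deletion of Wtap could not be checked in them. Among markers of other cell types, a peak of any length was called in the knockout list for 5 of 6 alpha, 4 of 5 delta and PP, 1 of 5 acinar, 3 of 4 ductal, 5 of 6 endothelial, 1 of 4 stromal and 1 of 5 immune genes. The control list had a peak for 3 of 6 alpha, 2 of 5 delta and PP, 2 of 5 acinar, 0 of 4 ductal, 6 of 6 endothelial, 1 of 4 stromal and 2 of 5 immune genes. A long peak was present in 1 of them, the acinar marker Bhlha15, in the control list alone, and their part in the results below was not tested.

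The longer the domain, the fewer of them the knockout list held for each in the control list. Among single-exon peaks under 300 nt there were 5578 knockout peaks and 6464 control peaks, a ratio of 0.863. The ratio was 0.691 for 300 to under 600 nt (1700 and 2462 peaks) and 0.577 for all long peaks. Within the long class it was 0.628 for 600 to under 800 nt (240 and 382), 0.617 for 800 to under 1000 nt (108 and 175) and 0.445 for 1000 nt or more (89 and 200). At 2000 nt or more there were 5 knockout and 17 control peaks. Of the knockout list 4.64% of peaks were long (95% interval 4.23 to 5.09), and of the control list 6.90% were (6.44 to 7.40). They covered 378043 nt in the knockout list and 691585 nt in the control list, which was 14.6% and 20.9% of the nucleotides under all peaks of each list. The median long peak measured 750 nt in the knockout list (quartiles 660 and 930, longest 3446) and 781 nt in the control list (quartiles 661 and 1020, longest 3779).

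**Figure D1:**
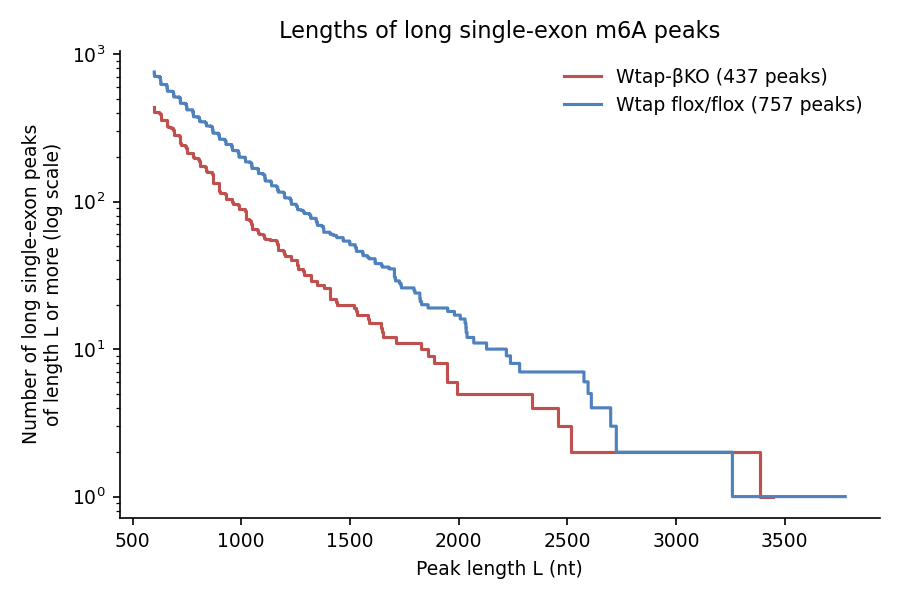
Number of long single-exon peaks (y axis, log scale) that reach at least the length on the x axis (nt), as 1 line per list: Wtap-βKO in red and Wtap flox/flox in blue. The lines start at 437 and 757 peaks at 600 nt, and at 1000 nt they stand at 89 and 200.

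In enrichment, as the peak caller gave it for each list alone, long peaks had folds somewhat above those of shorter peaks and much lower q values. The median fold of immunoprecipitate over input was 4.14 in knockout long peaks (quartiles 3.31 and 5.28) and 4.70 in control long peaks (quartiles 3.62 and 6.02). Single-exon peaks under 600 nt had median folds of 3.42 in the knockout list and 3.95 in the control list. The median −log10 q was 14.2 for knockout and 17.9 for control long peaks, beside 4.24 and 4.22 for the shorter peaks of each list. These values come from the same calls that chose the members and are given as a description, with no test. Just inside the limit, 10 knockout peaks of 600 nt had a median fold of 4.66 and a median −log10 q of 12.8, and the 10 just outside it, 1 or 2 nt shorter, had 5.38 and 11.7. For control peaks the values were 3.90 and 8.84 just inside (600 nt) and 4.50 and 17.4 just outside (1 nt shorter).

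The long peaks lay in 372 genes in the knockout list and 644 genes in the control list. Of all genes with a peak, 6.92% in the knockout list and 10.3% in the control list had a long peak. A set of 250 genes had a long peak in both lists, which was 67.2% of the knockout genes and 38.8% of the control genes. Of the 122 genes with a long peak in the knockout list alone, 120 had some control peak, and of the 394 with a long peak in the control list alone, 373 had some knockout peak. The matching shares over all genes with a peak were not counted, so these values do not set genes with a long peak apart. Several long peaks fell in 1 gene in 49 knockout genes and 82 control genes. The domains lay less toward gene ends than shorter peaks did. Of members matched to a RefSeq gene span (399 knockout, 721 control), 35.3% (30.6 to 40.2) in the knockout list and 40.5% (36.9 to 44.2) in the control list had their centre in the final 10% of the gene, against 45.0% and 47.0% of shorter single-exon peaks in the same lists. The 3′ edge lay within 1000 nt of the gene's 3′ end for 14.0% of knockout and 20.4% of control long peaks, against 24.1% and 25.2% of shorter ones.

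Nearly all long knockout domains had m6A peaks at the same place in control islets, and most long control domains still had some in knockout islets. An overlapping control peak was found for 434 of 437 long knockout peaks (99.3%, 98.0 to 99.9), where all knockout peaks gave 61.6% and single-exon ones under 600 nt gave 60.7%. An overlapping knockout peak was found for 708 of 757 long control peaks (93.5%, 91.5 to 95.2), where all control peaks gave 51.6% and single-exon ones under 600 nt gave 45.6%. Single-exon peaks of 300 to under 600 nt lay between, with 88.8% in the knockout list and 70.9% in the control list. A long peak has more bases with which to meet another, so the base at its midpoint was also scored alone. The midpoint lay in a control peak for 86.0% of long knockout peaks (82.4 to 89.2, background 54.8% of all peaks and 54.3% of single-exon ones under 600 nt) and in a knockout peak for 72.5% of long control peaks (69.2 to 75.7, background 43.5% and 38.6%). For 300 to under 600 nt the shares were 79.6% in the knockout list and 58.4% in the control list. Much of this gap between long and short peaks went with q. Among knockout peaks with −log10 q from 10 to 15, midpoints were covered in 82.0% of long and 85.2% of shorter single-exon peaks, and for control peaks the shares were 66.9% and 66.0%. Below a −log10 q of 10, they were 76.3% and 49.0% for knockout peaks and 54.7% and 32.0% for control peaks.

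What lay opposite a long domain differed with the direction of the comparison. Control domains were more often set against 1 shorter knockout peak, and knockout domains more often against 1 control peak of similar or greater length. Overlapping peaks of a list were counted as 1 partner, and a partner was called shorter under 0.8 times the member's length and longer where the member was under 0.8 times the partner's. Backgrounds are given for all peaks of the list and then for its single-exon peaks under 600 nt. A single shorter partner was found for 64 long knockout peaks (14.6%, 11.5 to 18.3, background 11.2% and 9.55%) and for 252 long control peaks (33.3%, 29.9 to 36.8, background 16.2% and 14.5%). A partner of similar length was found for 157 knockout peaks (35.9%) and 177 control peaks (23.4%), with backgrounds of 21.3% and 19.7% in the knockout list and 18.4% and 16.6% in the control list. A longer one was found for 101 knockout peaks (23.1%, background 26.4% and 30.2%) and 58 control peaks (7.66%, background 13.6% and 13.4%). Members were chosen for length in their own list, so some shortening in the other list follows from the choice itself, and both directions are given for that reason.

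Splitting was nearly as common in either direction at the limit of 600 nt, and more common in control peaks at longer limits. With limits of 800 and 1000 nt, the split share was 33.5% and 40.5% for knockout and 43.5% and 55.0% for control peaks. The partner was divided into 2 or more separate peaks for 112 long knockout peaks (25.6%, 21.6 to 29.99, background 2.76% and 1.28%) and for 221 long control peaks (29.2%, 26.0 to 32.6, background 3.48% and 1.11%), and these intervals overlap. For single-exon peaks of 300 to under 600 nt the split shares were 4.35% in the knockout list and 3.25% in the control list. A domain of 600 nt or more has more room for several partners than a short peak, so the gap to the background follows in part from length. The control list divided 99 knockout domains in 2 and 13 in 3. The knockout list divided 193 control domains in 2, 21 in 3 and 7 in 4. The gap between neighbouring pieces had a median of 149 nt in split knockout members (quartiles 89 and 209) and 177 nt in split control members (quartiles 89 and 245). At least 1 gap wider than 100 nt, the stated fragment length, was present in 75.9% of split knockout and 75.6% of split control members.

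**Figure D2:**
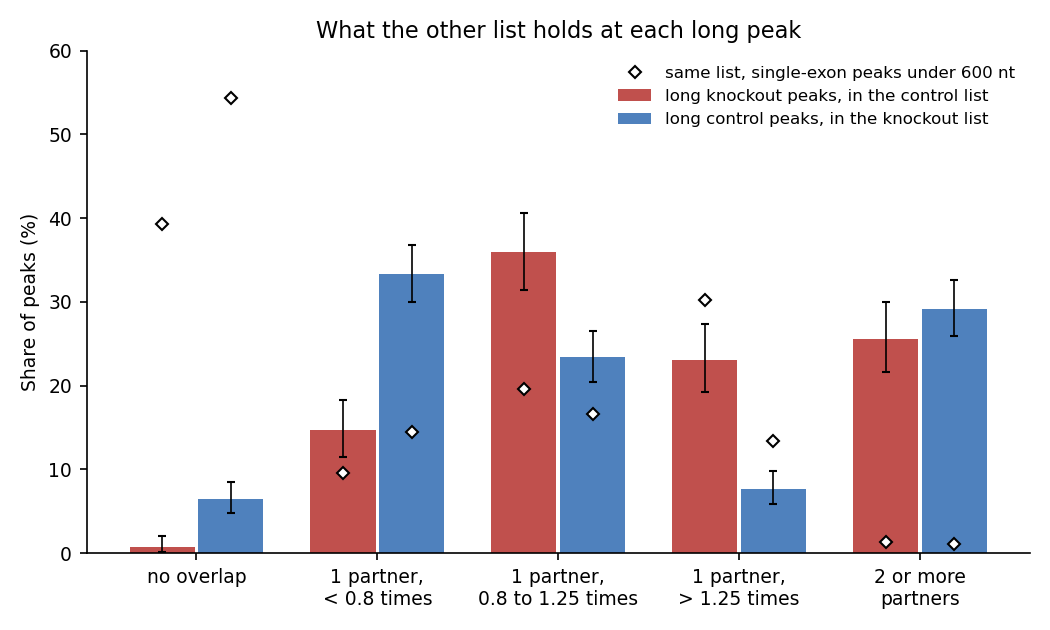
Share of long single-exon peaks (y axis, %) in each class of partner in the other list (x axis), with red bars for the 437 knockout peaks, blue bars for the 757 control peaks and exact 95% intervals as error bars. Diamonds give the same share for single-exon peaks under 600 nt of the same list; a shorter partner stood opposite 14.6% of knockout and 33.3% of control long peaks, and a split partner opposite 25.6% and 29.2%.

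Base by base, knockout domains were covered more fully than control domains. Control peaks covered a median of 90.02% of a long knockout peak (quartiles 70.9 and 100%), and knockout peaks covered a median of 69.5% of a long control peak (quartiles 46.3 and 87.5%). Cover of 90% or more was reached by 220 knockout peaks (50.3%) and 163 control peaks (21.5%), against 29.0% of all knockout and 16.9% of all control peaks. Cover of 50% or less was found for 41 knockout peaks (9.38%) and 206 control peaks (27.2%), against 45.8% and 58.1% of all peaks. Knockout peaks were thus the more fully covered among all peaks as well as among long ones. Cover was lowest at both ends of the domain. In the 5′-most 10% of its length, 69.8% of the bases of the average knockout member and 48.1% of those of the average control member were covered. In the fifth 10% the values were 85.2% and 72.0%, and in the 3′-most 10% they were 70.0% and 45.2%. The profile was close to symmetric from 5′ to 3′ in both lists. The ends of each domain were set by the call in its own list. Lower cover at the ends therefore follows in part from the choice of members.

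**Figure D3:**
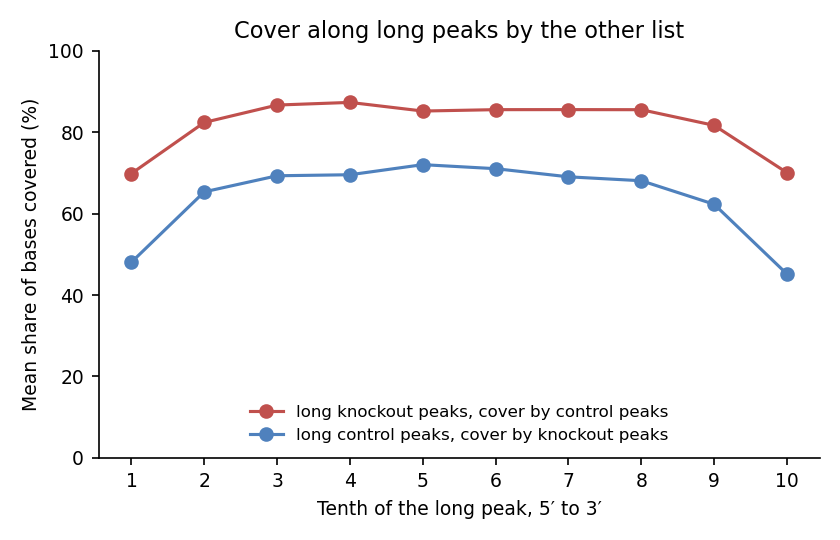
Mean share of bases covered by the other list (y axis, %) in each of 10 equal bins along long single-exon peaks from 5′ to 3′ (x axis), in red for 437 knockout peaks under control peaks and in blue for 757 control peaks under knockout peaks. Both lines dip at the ends, to 69.8% and 70.0% in red and to 48.1% and 45.2% in blue.

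Loci that were long in both lists do not favour one list by the choice of members. Long peaks of both lists that overlapped were joined into 891 loci, of which 253 had a long peak in both lists, 163 in the knockout list alone and 475 in the control list alone. At the 253 shared loci the knockout peaks covered fewer nucleotides than the control peaks at 167 (66.0%, 59.8 to 71.8), the same number at 15 and more at 71. The median ratio of knockout to control length was 0.923 (quartiles 0.821 and 1.03). Knockout peaks lay in more pieces than control peaks at 57 of these loci and in fewer at 25. At 151 of them 1 knockout and 1 control peak faced each other alone, with median lengths of 780 and 866 nt. Of these pairs the knockout peak was the shorter in 100, equal in 13 and the longer in 38, and their lengths had a Pearson correlation of 0.77 and a Spearman correlation of 0.64 across the 151 loci, which share the 4 libraries. The knockout 5′ edge lay inside the control peak in 74 pairs, on the same base in 30 and outside in 47. The knockout 3′ edge lay inside in 84, on the same base in 28 and outside in 39. Lengths at a locus were counted within its bounds, so a locus long in the control list alone could not come out longer in the knockout list (0 of 475), nor one long in the knockout list alone shorter there (0 of 163). For this reason the gene lists below are given by the 253 shared loci and by how many loci were long in each list alone.

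**Figure D4:**
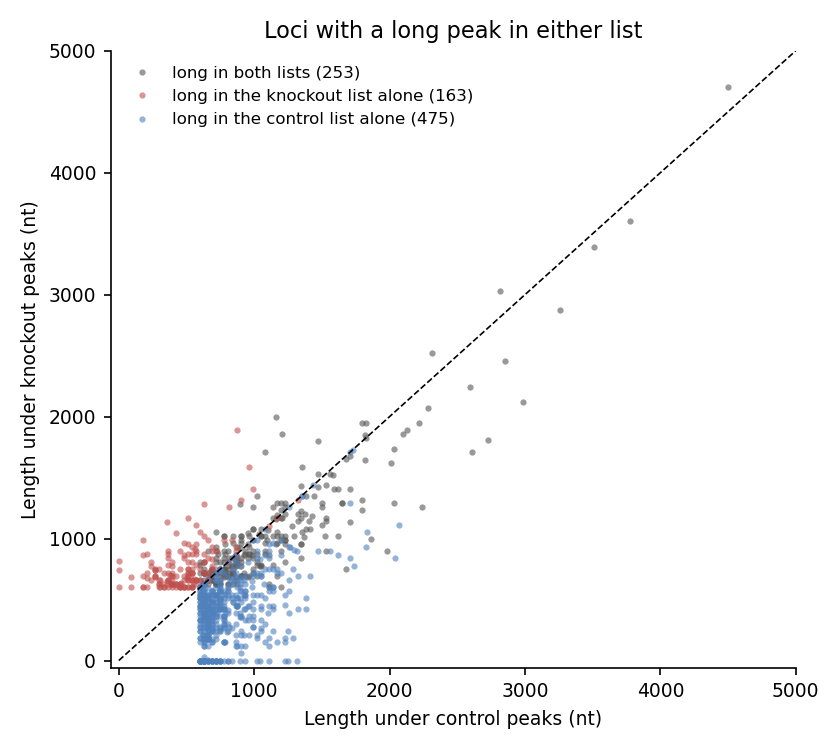
Nucleotides under knockout peaks (y axis) against nucleotides under control peaks (x axis) at the 891 loci with a long single-exon peak in either list, 1 point per locus, grey where long in both lists (253), red in the knockout list alone (163) and blue in the control list alone (475). The dashed line marks equal length; 167 of the 253 grey points lie below it.

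The widest domains sat in genes for very large proteins. In Golgb1, which encodes the Golgi tether giantin, the longest knockout domain ran unbroken for 3446 nt (chr16:36911954-36915399, GRCm38, plus strand), with a fold of 7.66 and a −log10 q of 55.8. The control list held peaks of 1109, 810 and 2577 nt there, the last of which reached past the knockout edge. Past that edge, the control peak of 2577 nt also met knockout peaks of 120 nt and of 3116 nt over 3 exons. It was thus itself divided in the knockout list, and at Golgb1 division ran both ways. Further 3′ the same knockout peak of 3116 nt met a control peak of 1708 nt. Of the peaks that carry the name Golgb1 in the lists, 1 of 7 in the knockout list and 5 of 8 in the control list were long, with 7974 nt under the knockout peaks and 7406 nt under the control peaks. In Ankrd11, a chromatin regulator, 1 knockout peak of 3389 nt (chr8:122892116-122895504, minus strand) stood over control peaks of 1950 and 1559 nt. The stretches under the knockout peaks of 3446 and 3389 nt were whole in the knockout list and divided in the control list.

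The microtubule-associated protein gene Map1b showed the same at 2 places. A knockout peak of 1948 nt met control peaks of 570 and 1259 nt, and another of 2457 nt met control peaks of 630, 750 and 1469 nt. In Scaf11, which encodes an SR-related splicing protein, 1 knockout peak of 2518 nt met 3 control peaks. Kmt2a, a histone H3 lysine methyltransferase gene, had a knockout peak of 1949 nt opposite control peaks of 1020 and 780 nt. The reverse was seen in Muc4, a membrane mucin gene: knockout peaks of 2340 and 1260 nt lay opposite a single control peak of 3779 nt, the longest of that list (chr16:32750287-32754065, plus strand). A little further 3′, knockout peaks of 781 and 931 nt lay in a control peak of 2611 nt. Pclo, which encodes a scaffold of the presynaptic active zone, had 3 long knockout peaks summing to 2670 nt and 6 long control peaks summing to 7172 nt, and a knockout peak of 3359 nt ran over several exons there.

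**Figure D5:**
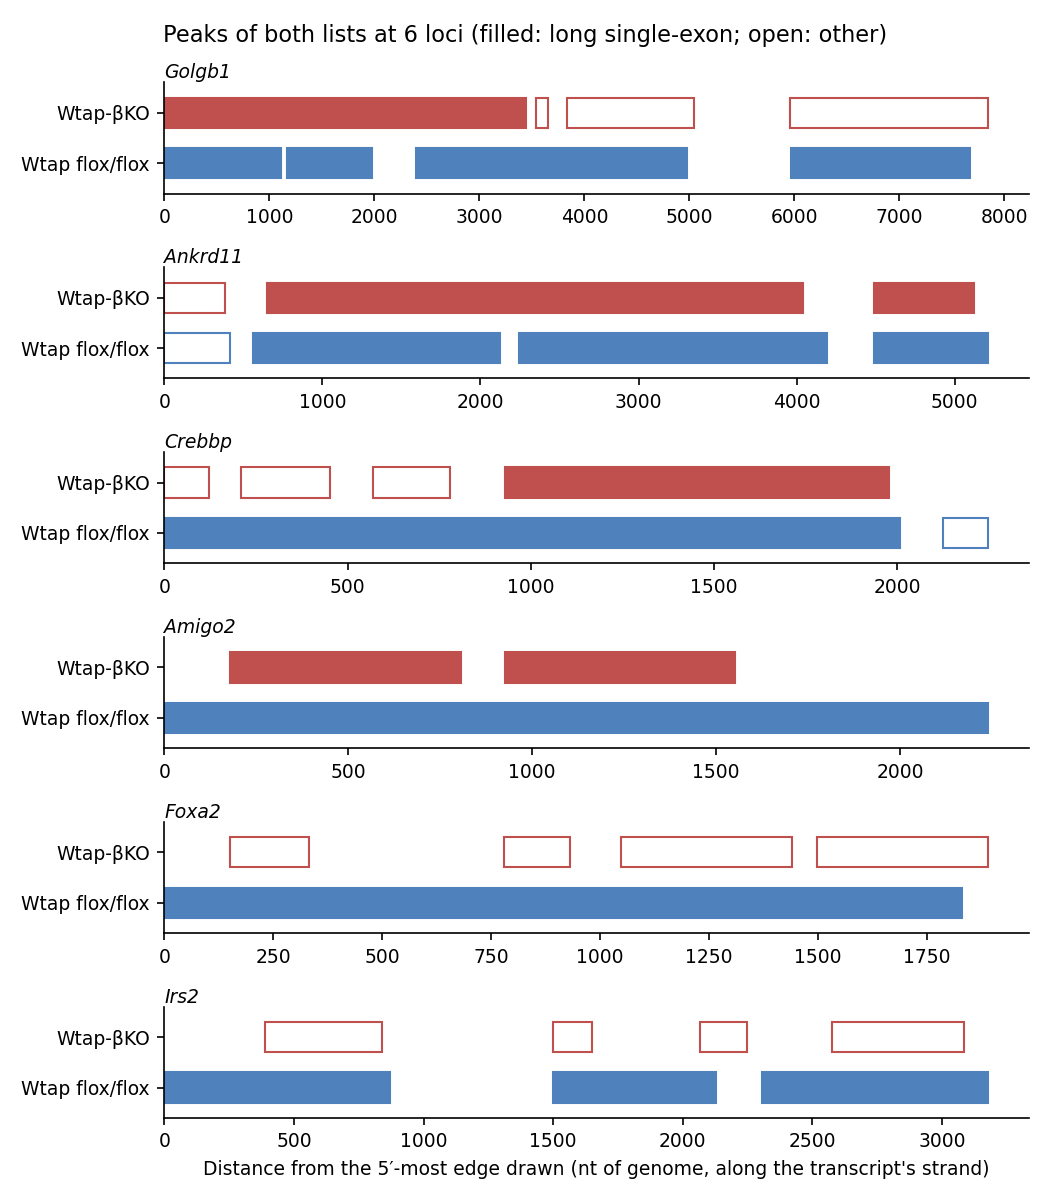
Peaks of both lists at 6 loci, drawn along the transcript from the 5′-most edge (x axis, nt of genome), with knockout peaks in red above control peaks in blue, filled where long and in 1 exon and open otherwise. Golgb1 and Ankrd11 show 1 knockout domain over several control peaks, Crebbp, Amigo2 and Foxa2 show several knockout pieces opposite 1 control domain, and in Irs2 knockout peaks that are each under 600 nt lie opposite 3 long control peaks. In Golgb1 the control peak of 2577 nt also lies opposite 3 knockout peaks.

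Scaffold and cytoskeletal genes were an examined list with more long-peak genes on the knockout side. Of 23 such genes, 11 had a long knockout peak and 8 a long control peak, out of 21 with any peak in each list (52.4% and 38.1%), where all genes with a peak gave 6.92% and 10.3%. Long in both were Akap11, Akap13, Dst, Map1b, Pclo, Plec and Spen. Long in the knockout list alone were Ahnak, Akap9, Ank2 and Syne1. Of these, Ahnak and Ank2 stood at the limit, with 600 and 601 nt against control peaks of 331 and 511 nt. Under all peaks, Ahnak had 1926 nt in the knockout and 2016 nt in the control list, and Ank2 had 2257 and 3338 nt. The knockout list held the more in Akap9 (4265 and 3427 nt) and Syne1 (3342 and 1448 nt). Spen, Mdn1 and Huwe1 were counted in this list although they are not scaffold or cytoskeletal genes. In Spen the long knockout peaks and the long control peak did not overlap. Of their 26 loci, 11 were long in the knockout list alone, 8 in the control list alone and 7 in both, where all loci gave 163, 475 and 253. At the 7 shared loci the knockout length was shorter at 4, equal at 1 and longer at 2. Syne1, which encodes a nuclear envelope spectrin-repeat protein, had a knockout peak of 871 nt over a control peak of 211 nt. Plec, the gene of the cytolinker plectin, had 3 long knockout peaks (601, 660 and 871 nt) and 1 long control peak (630 nt). The list was read with no test.

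Chromatin regulators held many long domains in both lists, and more in the control list. Of the 33 genes examined, 11 of 30 with a knockout peak and 19 of 31 with a control peak had a long one, where all genes with a peak gave 6.92% and 10.3%. Of these, 10 genes had a long peak in both lists. Tnrc6a, Tnrc6b and Tnrc6c were counted in this list although they are not chromatin regulators. Tnrc6b was long in the knockout list alone, and Tnrc6a and Tnrc6c were long in the control list alone. At 13 shared loci the knockout length was shorter at 10, equal at 1 and longer at 2. A further 4 loci were long in the knockout list alone and 16 in the control list alone. All 891 loci gave 163 and 475. Crebbp, which encodes a histone acetyltransferase and coactivator, had knockout pieces of 121, 241, 211 and 1049 nt in a control domain of 2008 nt (chr16:4084054-4086061, minus strand), and they covered 80.8% of it. Its paralogue Ep300 had a knockout peak of 1380 nt and a further piece in a control domain of 2129 nt, with 88.8% covered. Tet2, which encodes an enzyme that oxidises methylated cytosine in DNA, had knockout peaks of 481 and 750 nt in a control domain of 1799 nt. The listed fold of that domain, 24.2, was also that of a long control peak in Zfp62. Some high folds lay on fixed values, as described at the end. In Tet3, a family member, a knockout peak of 121 nt was all that lay in a control domain of 1110 nt (10.9% covered). Arid1b and Bptf, subunits of nucleosome remodelling complexes, kept like lengths, with 841 nt in the knockout and 811 nt in the control list for Arid1b, and 720 and 720 nt in the knockout list against 720 and 840 nt in the control list for Bptf. In Srcap, the ATPase of another remodelling complex, knockout pieces in 4 places covered 66.3% of a control domain of 2726 nt (chr7:127558015-127560740, plus strand), where peaks of an overlapping predicted gene were called a second time on the same bases.

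Beta cell transcription factor genes had long domains mainly in the control list. Of 27 genes, 3 of 22 with a knockout peak and 8 of 24 with a control peak had a long one (13.6% and 33.3%), where all genes with a peak gave 6.92% and 10.3%. Of 9 loci, 1 was long in the knockout list alone, 6 in the control list alone and 2 in both. All 891 loci gave 163, 475 and 253, so the control list held the more among all loci as well. Foxa2, a pioneer factor of endoderm and islets, had knockout pieces of 181, 151, 391 and 391 nt, against 1 control domain of 1830 nt (chr2:148042967-148044796, minus strand), which they covered by 57.6%. Mafa, an activator of the insulin genes, had a knockout peak of 298 nt and a control peak of 685 nt. Nkx2-2, a factor of beta cell identity, had knockout peaks of 241 and 181 nt in a control peak of 661 nt. In Nfatc2, a calcium-regulated factor, a knockout peak of 300 nt lay in a control peak of 1079 nt. Glis3, which acts in beta cell development, had a knockout peak of 540 nt and a control peak of 930 nt.

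The remaining genes named here differed less between the lists. Foxo1, a target of insulin signalling, had a knockout peak of 870 nt inside a control peak of 1080 nt, and another of 271 nt at its edge. Pdx1, a regulator of the pancreas and of insulin transcription, counted as long in the knockout list alone only by exon number: its knockout peak of 810 nt in 1 exon lay wholly in a control peak of 1200 nt over 2 exons. St18 was the reverse case, with a knockout peak of 869 nt over 2 exons and a control peak of 719 nt in 1.

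Genes of beta cell function likewise had most of their long domains in the control list. Of 28 genes, 2 of 24 with a knockout peak and 7 of 24 with a control peak had a long one (8.33% and 29.2%, against 6.92% and 10.3% of all genes with a peak). Of 8 loci, 6 were long in the control list alone, where all loci gave 475 of 891. At the 2 shared ones the knockout length was the shorter. Since 6 were chosen for length in the control list alone, their shorter knockout peaks follow in part from the choice. Ucn3, which encodes the mature beta cell peptide urocortin 3, had a knockout peak of 237 nt, against 798 nt in the control list. Ffar1, a fatty acid receptor gene, had a knockout peak of 270 nt and a control peak of 776 nt. G6pc2, the islet glucose-6-phosphatase gene, had a knockout peak of 360 nt in a control peak of 898 nt that was listed with a q of 0. In these 3 genes the knockout peak lay inside the control domain.

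In Kcnj11, the gene of a subunit of the ATP-sensitive potassium channel, knockout peaks of 120 and 359 nt covered 35.3% of a control domain of 1104 nt. Prlr, the prolactin receptor gene, had knockout peaks of 810 and 511 nt opposite a control domain of 1649 nt, and a knockout peak of 180 nt in another of 720 nt. The granin genes did not follow this pattern. Scg2 had a knockout peak of 689 nt and a control peak of 749 nt, both listed with a q of 0, and Chgb had a knockout peak of 1788 nt over several exons, against a control peak of 1728 nt in 1 exon. Hspa5, which encodes the endoplasmic reticulum chaperone BiP, likewise had 721 nt in the knockout list and 781 nt in the control list.

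Immediate early genes, whose short-lived transcripts follow stimulation, had long domains in 5 of 19 genes with a knockout peak and 9 of 17 with a control peak (26.3% and 52.9%, against 6.92% and 10.3% of all genes with a peak). At their 4 shared loci the knockout length was the shorter. Of the other loci 2 were long in the knockout list alone and 6 in the control list alone. All 891 loci gave 163 and 475. Jun had knockout peaks of 716 and 865 nt, against control peaks of 776 and 1371 nt. Egr1, a zinc finger factor, had knockout peaks of 868 and 539 nt in a control domain of 1705 nt (82.5% covered). Klf4 ran the other way, with a knockout domain of 838 nt over control peaks of 180 and 359 nt. Of insulin and growth factor adaptors, 1 of 13 genes with a knockout peak and 4 of 15 with a control peak had a long one (7.69% and 26.7%), and of 7 loci 1 was long in the knockout list alone and 6 in the control list alone. Irs2, the insulin receptor substrate of beta cells and liver, had a knockout peak of 510 nt opposite a control domain of 870 nt, knockout peaks of 181 and 151 nt opposite one of 630 nt, and a knockout peak of 450 nt opposite another of 870 nt. Igf1r, the receptor gene of insulin-like growth factor, had a control peak of 601 nt with no knockout overlap.

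Leucine-rich repeat adhesion genes, whose extracellular domain tends to lie in 1 long coding exon, had long domains in 4 of 6 genes with a knockout peak and 5 of 12 with a control peak. These are few genes, at 66.7% and 41.7%, against 6.92% and 10.3% of all genes with a peak. At their 4 shared loci the knockout length was the shorter, and the 2 others were long in the control list alone. In Slitrk6 the lengths lay close, with 1643 nt in the knockout list and 1822 nt in the control list. Amigo2 had knockout peaks of 628 and 627 nt inside a control domain of 2239 nt (chr15:97244572-97246810, minus strand), which they covered by 56.1%. Lrrn1 had knockout peaks of 628, 1194 and 419 nt inside a control domain of 2596 nt, with 86.3% covered. Lrfn4 had a control domain of 1252 nt with no knockout overlap.

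Zinc finger genes had long domains at shares close to those of all genes. They were long in 17 of 228 genes with a knockout peak (7.46%) and 26 of 277 with a control peak (9.39%). All genes with a peak gave 6.92% and 10.3%. At 13 shared loci the knockout length was shorter at 6 and longer at 7. A further 8 loci were long in the knockout list alone and 17 in the control list alone, where all 891 loci gave 163 and 475. In Zfp292 the knockout list had 4 long peaks (781, 1020, 1711 and 721 nt) and the control list 3 (871, 600 and 781 nt). In Zc3h4 a knockout peak of 391 nt lay opposite a control domain of 1260 nt. Protocadherin genes had 0 of 29 and 2 of 24 (8.33%), against the same 6.92% and 10.3%. Their 2 loci were long in the control list alone. Pcdhga5 had knockout peaks that sum to 839 nt against a control domain of 1735 nt.

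Among m6A machinery genes, 2 of 14 with a knockout peak and 1 of 13 with a control peak had a long one. These are 14.3% and 7.69%, against 6.92% and 10.3% of all genes with a peak. Of 2 loci, 1 was long in both lists, with the knockout length the shorter, and 1 was long in the knockout list alone. Rbm15, the writer subunit gene, had a knockout peak of 1198 nt and a control peak of 1378 nt, which covered 92.6% of it. Ythdf3, which encodes a cytoplasmic m6A reader, had a knockout peak of 869 nt inside a control peak of 1768 nt that ran over 2 exons. Wtap had no long peak in either list. Both lists also had long domains in the noncoding RNAs Malat1 and Meg3, which were named from the RefSeq span that alone held them. Their 3 loci were long in both lists, and the knockout length was shorter at 1 and longer at 2. Malat1 had a knockout peak of 1649 nt and a control peak of 1170 nt, both listed with a q of 0, and with a further overlapping control peak the control domain came to 1679 nt. Meg3, a maternally expressed imprinted RNA, had knockout peaks of 871 and 1861 nt against control peaks of 661 and 841 nt.

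Some control domains had no knockout peak at all. There were 49 in 48 genes (6.47% of long control peaks, against 48.4% of all control peaks), of 600 to 1316 nt, with a median −log10 q of 12.5. In 27 of them the gene had a knockout peak elsewhere, and in 6 a knockout peak lay within 200 nt. With the highest −log10 q of these were Rab33b (601 nt, 35.0), Bace2 (691 nt, 34.0), Chpf (1316 nt, 31.4), Soga1 (629 nt, 31.1) and Rpusd1 (658 nt, 24.8). Rab33b encodes a Golgi small GTPase, Bace2 an aspartic protease of beta cells and Chpf a chondroitin synthase subunit. Bhlha15, a transcription factor of acinar secretory cells, was also among them, with 1046 nt in the control list. In the other direction only 3 knockout domains had no control overlap (0.686%, against 38.4% of all knockout peaks), and the named one was in Ksr2, a kinase scaffold gene (601 nt, −log10 q of 20.2).

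Where 1 short partner was left, some single genes stood out in either list. Among control domains of low q, Arhgef17 had a knockout peak of 121 nt in a control domain of 900 nt. Gjd2, the gene of the beta cell gap junction protein connexin 36, had 181 nt in the knockout list and 1230 nt in the control list. Arc, an activity-regulated gene, had 241 nt in the knockout list and 1140 nt in the control list. Among knockout domains, Mum1l1 had 990 nt in the knockout list and 181 nt in the control list. Hmgn5, which encodes a nucleosome-binding protein, had 804 nt in the knockout list and 239 nt in the control list.

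Genes with several long domains also went both ways. Gpr158 had 0 long knockout peaks of 4 (692 nt in all) and 3 long control peaks of 4 (2848 nt in all). Zdbf2, an imprinted gene, had 4 long knockout peaks of 9 and 0 long control peaks of 11, with 4118 nt under all knockout peaks and 3160 nt under all control peaks. Apc, a regulator of Wnt signalling, had 3 long knockout peaks of 8 and 0 long control peaks of 11, although 3813 nt lay under its knockout peaks and 4114 nt under its control peaks. In Apc the number of long peaks and the sequence under all peaks thus differed in opposite directions between the lists.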

How the data were processed

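m6A immunoprecipitates and inputs of 2 islet RNA pools were sequenced with 150 bp paired reads (4 samples), and 1 peak list per genotype was deposited. fastp 0.19.11, BWA 0.7.12, HOMER 4.9.1 and the GRCm38 (mm10) build are named per the submitters' processing notes. Per the labels' design text, peaks were called with exomePeak 2.16.0 against the input of the same genotype at a q threshold of 0.05. The annotation release and the depth are not given in the sources used here. The deposited p-value of each peak is the caller's, the deposited log10 p and log10 q were held as a score, and the deposited fold is the authors' ratio of immunoprecipitate over input. They were used only to describe or rank peaks within a list.

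Overlap needed 1 shared base of exon blocks on the same strand. Partners are peaks of the other list, joined where they overlap each other, and lengths are exonic. Work was done in Python 3.11.15 with pandas 2.3.3, numpy 2.4.6, scipy 1.17.1 and matplotlib 3.10.9. The overlap code was tested on 1200 simulated peaks, with 0 wrong. Gene positions are RefSeq spans of GRCm38, matched by symbol and place for 399 knockout and 721 control long peaks. In each list 5 long peaks were mitochondrial and were counted but not named.

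Members and gene lists were chosen with earlier results of these data known. Genes were named by a rule: the 10 longest, the 5 of lowest q, the 5 of lowest q without overlap, the 5 most split, the 5 genes with most long peaks, the 5 smallest and 5 largest length ratios among members whose −log10 q was above their list's median, and all members of the gene lists. Apc and Gpr158 were named after their values were seen, and a result that the rule names is not reported here. No sequence is printed, since no genome of this build was used here. Each genotype was 1 pool, so no test between them was made.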

Additional observations from a re-analysis of the deposited data

How the results depend on the processing

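The ratio of knockout to control long peaks stayed between 0.445 and 0.616 under all alternatives, which were other length limits, q and fold limits, equal list sizes, merging of overlapping peaks and, chosen after seeing the data, joining neighbours within 100 or 200 nt and counting blocks of any exon number. This ratio did not reverse under any alternative, and reversal was scored for no other value. Of all alternative values, 65 stayed within their interval or within 1.5 times, and 39 did not. Equal list sizes left all 437 and 757 long peaks, and a q of 0.001 or less left 436 and 757. These settings removed almost no long peak and could hardly move the ratio. With limits of 500, 800 and 1000 nt there were 720, 197 and 89 knockout and 1182, 375 and 200 control peaks. The overlapped share was 100% for knockout peaks at 1000 nt, and 89.8%, 97.1% and 97.0% for control peaks at the 3 limits. The split share was 19.4%, 33.5% and 40.5% for knockout and 22.1%, 43.5% and 55.0% for control peaks, median cover was 93.6% for knockout peaks at 1000 nt and 65.4%, 72.8% and 73.3% for control peaks, and the share of overlapped peaks with 1 shorter partner, 14.8% and 35.6% as reported, was 18.7%, 10.7% and 4.49% for knockout and 41.0%, 27.8% and 19.1% for control peaks. With shorter defined as under 0.7 times it was 8.99% and 29.5%. A 50% reciprocal overlap lowered the overlapped share to 70.9% for knockout and 55.5% for control peaks, and the midpoint alone to 86.0% and 72.5%. In control peaks, a q of 0.001 or less in both lists gave 90.6% overlapped and 25.9% split, and a fold of 2 or more gave 89.9% overlapped, 24.5% split and 66.8% median cover. With partners within 100 nt counted as 1, chosen after seeing the data, the split share was 19.5% for knockout and 22.1% for control peaks. No paired analysis was possible because only 1 pool was made of each genotype, and no replicate could be left out. The lists hold neither the depth of each library nor the RNA level of each gene, and the part of either in the length of a domain was not tested. Intervals cover counting over peaks, not the spread between mice or pools.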

Other observations

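Mitochondrial transcripts had 5 long peaks in each list. Protein families known for long exons were also read from the domain descriptions in the peak lists, with the families chosen after their values were seen. Of genes with a peak whose product has a PHD finger, a reader of histone tails, 25% in the knockout list (14 of 56) and 29.9% in the control list (20 of 67) had a long peak. For SET domains, the catalytic fold of histone lysine methyltransferases, the shares were 27.3% (6 of 22) and 40.0% (10 of 25), and for bromodomains they were 31.0% (9 of 29) in both lists. All genes with a peak gave 6.92% in the knockout list and 10.3% in the control list. Protein kinase genes gave 6.45% (10 of 155) in the knockout list and 11.2% (21 of 187) in the control list.

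Some domains were listed more than once. Among long peaks, 22 knockout and 41 control members overlapped another peak of their own list, as at Epm2aip1, where 4 long knockout peaks covered 2 places, and at Zc3h11a with its overlapping predicted gene in the control list. Some high folds lay on fixed values: of members with a fold of 8 or more, 13 of 27 in the knockout list lay on whole multiples of 0.816 and 41 of 80 in the control list on whole multiples of 1.05. Among all peaks with a fold of 8 or more, 79.6% in the knockout list and 78.7% in the control list did.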
